A study of Mus musculus with 10 samples.

Results

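The Egr factors and the Nab corepressors were followed as 6 genes, Egr1, Egr2, Egr3, Egr4, Nab1 and Nab2, taken by symbol from the 36047 genes to which the deposited transcripts could be joined. Of these 6 genes, 5 had enough reads to be among the 13362 genes tested, and Egr4 did not. The RNA came from hepatic stellate cells, which lie along the liver sinusoids, store retinoids and can turn into matrix-forming myofibroblasts, and the labels name C57BL/6 male mice as their source. In the Areg group, quiescent cells were cultured for 5 h and then held for 4 h in starving medium containing 500 ng/mL of recombinant mouse amphiregulin, a growth factor of the EGF family that acts on the EGF receptor. In the control group, cells went through the same isolation, culture and starving medium with the labelled control treatment. Each group had 5 libraries, and the labels do not say whether these came from separate animals or cultures, so p-values measure the spread between libraries, which may be technical.

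Egr1, Egr2, Egr3 and Egr4 encode zinc finger transcription factors that bind GC-rich DNA. Growth factor receptors switch Egr genes on through the ERK kinases, which act on serum response factor and its Elk partners at DNA elements called CArG boxes, and the transcripts are known as immediate-early and short-lived. Nab1 and Nab2 encode proteins that dock on Egr1, Egr2 and Egr3 and can repress their target genes. Nab2 is itself known as an Egr target, which closes a feedback loop.

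The sequences below carry matches to 2 DNA elements, the CArG box described above and a GC-rich motif called the EGR motif. They come from the RefSeq promoter windows of GRCm38.p6, which cover 250 bases before and 50 after each start. Windows of 4 of the 6 genes, matched by symbol, were used. No window of Egr1 or Egr3 was examined, so the matches say nothing about these 2 genes. On either strand, a CArG box (CC, 6 A or T bases, then GG) is present in 1.63% of all 32817 windows, and the EGR motif GCGNGGGCG in 5.56%. A CArG box was found in 4 of the 5 windows of Egr2, at 2 separate positions, and in no window of Egr4, Nab1 or Nab2. The EGR motif had 3 matches in the window of Nab1 and none in those of Egr2, Egr4 and Nab2. A match describes letters, not binding, and the absence of one says nothing about a factor.
Egr2, before the start of the main transcript, chr10:67537619-67537868, plus strand, CArG box in capitals: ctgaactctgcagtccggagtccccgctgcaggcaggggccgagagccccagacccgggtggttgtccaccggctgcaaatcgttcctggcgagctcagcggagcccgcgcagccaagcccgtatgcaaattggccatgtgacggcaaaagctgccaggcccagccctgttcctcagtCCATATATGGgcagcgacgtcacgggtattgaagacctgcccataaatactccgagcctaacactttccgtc
Egr2, further upstream, chr10:67537484-67537513, plus strand, CArG box in capitals: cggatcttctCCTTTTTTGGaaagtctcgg
Nab1, chr1:52500576-52500594, minus strand, EGR motif (read on the other strand) in capitals: gcggcCGCCCACGCcggga
Nab1, chr1:52500544-52500562, minus strand, EGR motif in capitals: gccgcGCGTGGGCGggagc
Nab1, chr1:52500473-52500491, minus strand, EGR motif in capitals: gcgggGCGGGGGCGgcgga
The longer Egr2 stretch ends at the base before the start of transcript Egr2-201, the Egr2 model with the highest TPM, and its CArG box begins 72 bases before that start. The Nab1 matches begin 141, 109 and 38 bases before the RefSeq start and lie inside an exon that the GENCODE M21 annotation gives to Nab1.

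Libraries held 14365027 to 20057962 estimated counts in the Areg group and 10125184 to 17566891 in the control group. Over all tested genes, 2226 (16.7%) differed at an edgeR adjusted p under 0.05, 8.34% higher and 8.32% lower with Areg. Of the called genes 50.04% were higher, a share that came to 37.6% on a log2(TPM + 1) scale. Controls 3 and 4 stood apart: the other 8 libraries had first principal component scores of -16.5 to 0.455, and these controls had 46.6 and 28.6. All 10 stellate cell markers exceeded 1 TPM on average, and they summed to 9505 to 9911 TPM in Areg libraries and 10258 to 11057 TPM in control libraries, without overlap. Most of that gap lay in Ecm1, which averaged 3568 TPM with Areg and 4412 TPM in controls. Every other stellate marker except Rgs5 also had a lower mean with Areg. Lrat averaged 9.99 TPM with Areg and 14.1 TPM in controls, Des 23.4 and 25.9 TPM, and Reln 355 and 404 TPM. Rgs5 averaged 343 TPM with Areg and 334 TPM in controls. Markers of other liver cells were present too, at 2444 to 2542 TPM in Areg and 2459 to 2816 TPM in control libraries for 6 endothelial genes, and at 425 to 478 TPM in Areg and 439 to 502 TPM in control libraries for 7 macrophage genes. The 7 hepatocyte genes summed to 2012 to 2429 TPM in Areg libraries and 1813 to 2833 TPM in control libraries. The part of these cells in the values below was not tested. In bulk RNA, fewer cells of a type and less RNA per cell cannot be told apart.

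Egr1, Egr2 and Egr3 all rose with Areg, by 1.30-fold, 1.61-fold and 1.91-fold. Nab1 and Nab2 did not pass the test, with log2 fold changes of 0.12 and -0.14, and Egr4 had almost no reads. Thus 3 of the 5 tested members were called, all 3 higher, where 8.34% of all tested genes were called higher and 8.32% lower. By size of the p-value Egr2 ranked 16, Egr3 ranked 47 and Egr1 ranked 142 of 13362 genes. By the size of the increase Egr3 ranked 56, Egr2 ranked 126 and Egr1 ranked 523.

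**Figure D1:**
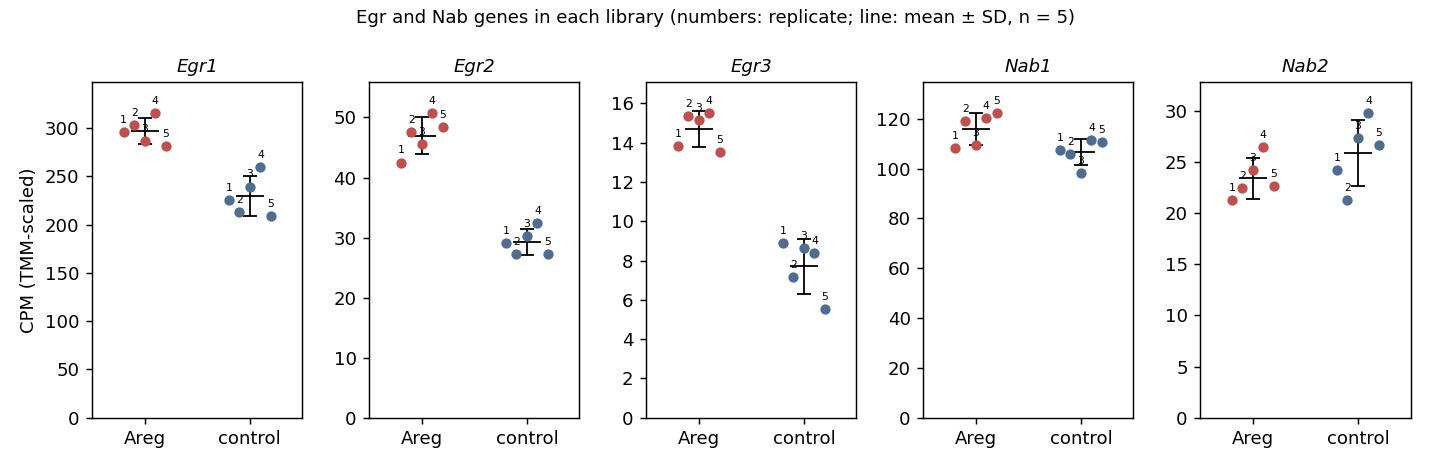
CPM (TMM-scaled, vertical axis) of the 5 tested genes in each library, with Areg at the left and control at the right of each panel; points are libraries, numbers are replicates, and lines are the mean ± SD of 5 libraries. The groups are separate for Egr1, Egr2 and Egr3 and overlap for Nab1 and Nab2.

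Egr1, on chromosome 18, is the family member best known as an early response gene in fibroblasts and other stromal cells. It had 296, 303, 287, 316 and 282 CPM (read counts scaled to library size with TMM factors) in Areg libraries 1 to 5, against 225, 213, 239, 259 and 208 CPM in controls 1 to 5. The lowest Areg library lay above the highest control, which was control 4. The mean was 297 ± 13.6 CPM with Areg and 229 ± 20.7 CPM in controls (SD, n = 5 each). The log2 fold change was 0.37 with an SE of 0.06 (edgeR adjusted p = 0.000528). Separate groups in CPM were seen for 3 of the 5 tested members, all with Areg higher. Over all tested genes, 7.64% had separate groups with Areg higher and 7.06% with Areg lower.

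Egr2, also called Krox20, is known for its role in Schwann cell myelination and in T cells. The gene lies on chromosome 10, 67535475 to 67542188 (GRCm38). Its values were 42.5, 47.6, 45.6, 50.8 and 48.4 CPM in Areg libraries 1 to 5 and 29.1, 27.2, 30.2, 32.3 and 27.3 CPM in controls 1 to 5. Every Areg library exceeded every control, and the gap between the groups was wider than the range within either. The mean was 47.0 ± 3.11 CPM with Areg and 29.2 ± 2.15 CPM in controls (SD, n = 5 each). The log2 fold change was 0.69 with an SE of 0.06 (edgeR adjusted p = 5.50e-06).

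Egr3, known from muscle spindles and lymphocytes and reported as a gene that Egr1 can switch on, lies on chromosome 14, 70077203 to 70082614. It was the lowest of the 3 members that rose. Areg libraries 1 to 5 had 13.8, 15.4, 15.2, 15.5 and 13.5 CPM, and controls 1 to 5 had 8.91, 7.15, 8.64, 8.37 and 5.52 CPM. Control 5 was the lowest library, and no control reached the Areg range. The mean was 14.7 ± 0.929 CPM with Areg and 7.72 ± 1.40 CPM in controls (SD, n = 5 each). The log2 fold change was 0.93 with an SE of 0.11 (edgeR adjusted p = 7.27e-05). The spread relative to the mean was 6.32% with Areg and 18.1% in controls.

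Egr4, the remaining family member (chromosome 6, 85511121 to 85513589), is known mainly from neurons and male germ cells. It had estimated counts of 0, 3, 1, 0 and 0 in Areg libraries 1 to 5 and of 1, 0, 3, 1 and 0 in controls 1 to 5. No library held more than 3 reads, so no fold is given. In the 5 libraries with no read, a count of 0 allows a level of up to 0.164 to 0.214 CPM (3 counts per library, counting error only).

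Nab1 (chromosome 1, 52457294 to 52500679) was the more abundant corepressor gene. It had 108, 119, 109.6, 120.1 and 122 CPM in Areg libraries 1 to 5 and 107.6, 106, 98.2, 111 and 110.7 CPM in controls 1 to 5. The groups overlapped, with Areg 1 and 3 inside the control range. The mean was 116 ± 6.51 CPM with Areg and 107 ± 5.30 CPM in controls (SD, n = 5 each), a log2 fold change of 0.12 (95% interval -0.0022 to 0.24, edgeR adjusted p = 0.131).

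Nab2, the corepressor gene usually described as inducible, lies on chromosome 10, 127660918 to 127668568. Its values were 21.3, 22.5, 24.2, 26.5 and 22.7 CPM in Areg libraries 1 to 5 and 24.2, 21.3, 27.4, 29.8 and 26.7 CPM in controls 1 to 5. The groups overlapped over most of their range. The mean was 23.4 ± 2.01 CPM with Areg and 25.9 ± 3.25 CPM in controls (SD, n = 5 each), a log2 fold change of -0.14 (95% interval -0.34 to 0.06, edgeR adjusted p = 0.286). The interval leaves room for a small rise or a fall of Nab2, and its upper bound lies below the estimates for Egr1, Egr2 and Egr3. Without controls 3 and 4 the log2 fold change of Nab2 was -0.04 (edgeR adjusted p = 0.801), and those of Egr1, Egr2 and Egr3 were 0.46, 0.75 and 1.02.

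Neighbouring and similar genes bear on how far these counts can be assigned. Words of 31 bases from the Egr1 transcripts occurred in no transcript of another gene among those in the files, and 0.406% of those of Egr2 and 0.523% of those of Egr3 did so. For Nab1 the share was 6.41%, most of it with Cog7, and for Nab2 it was 4.89%, of which 121 of 143 words were shared with Nemp1. Nemp1, the antisense gene Gm16229 and Stat6 overlap Nab2 on the opposite strand, by 1668, 1646 and 40 bases. Gm16229 was not analysed here, and the strand setting of the counting is not given in the sources used here. Stat6 fell with Areg, by 0.15 on the log2 scale (edgeR adjusted p = 0.0132), and Nemp1 had a log2 fold change of 0.06 (edgeR adjusted p = 0.676). What these neighbours contribute to the Nab2 value was not tested.

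Levels of different genes were compared as TPM (which is corrected for transcript length and for the sum over each library). The order with Areg was Egr1 at 159 ± 6.45, Nab1 at 52.1 ± 3.06, Egr2 at 37.1 ± 3.41, Nab2 at 18.0 ± 2.50, Egr3 at 8.79 ± 0.986 and Egr4 at 0.0329 ± 0.0535 TPM (SD, n = 5). In that group the ranges of neighbours in the order did not overlap. Controls gave the same order, at 123 ± 9.52, 49.5 ± 4.81, 24.2 ± 2.41, 19.6 ± 2.49, 4.63 ± 1.02 and 0.0724 ± 0.0980 TPM (SD, n = 5), but there Egr2 (21.2 to 26.6 TPM) and Nab2 (16.4 to 22.6 TPM) overlapped. Egr1 ranked 1114 of 36047 genes by mean TPM over the 10 libraries.

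The summed TPM of the 4 Egr genes was 205 ± 9.35 with Areg and 152 ± 12.6 in controls, while that of the Nab genes was 70.1 ± 4.25 with Areg and 69.1 ± 5.51 in controls (SD, n = 5 each). Egr TPM was 2.67 to 3.16 times Nab TPM in Areg libraries and 1.94 to 2.57 times in controls. Control 3 had the highest control ratio and Areg 5 the lowest Areg ratio, and the groups did not overlap. Egr1 made up 77.6% ± 1.19 of Egr TPM with Areg and 81.0% ± 1.02 in controls. The share of Egr2 was 18.1% ± 1.13 with Areg and 15.9% ± 0.471 in controls, and that of Egr3 was 4.29% ± 0.416 with Areg and 3.02% ± 0.494 in controls (SD, n = 5 each).

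**Figure D2:**
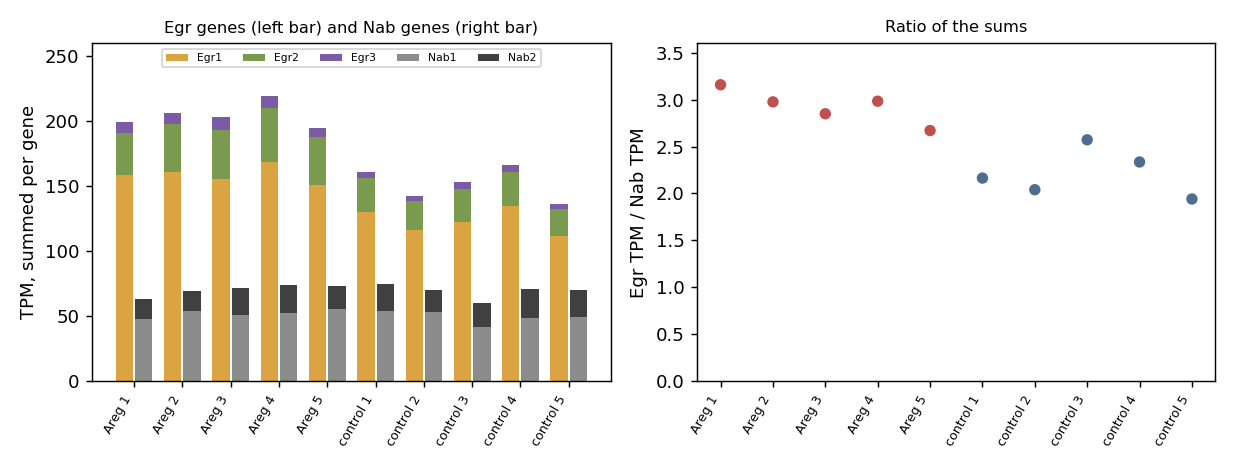
Left, TPM summed per gene (vertical axis) in each library, with Areg libraries first, the Egr genes stacked in the left bar and the Nab genes in the right bar; Egr4 is too low to draw. Right, the ratio of the summed Egr TPM (Egr4 included) to the summed Nab TPM, which is 2.67 to 3.16 in Areg libraries and 1.94 to 2.57 in controls.

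Whether the members changed by unequal amounts was tested on the log2 ratio of TPM + 0.1 of 2 genes within a library. All 10 pairs of the 5 measurable members were put to an exact permutation test, two-sided and over 252 arrangements, and p-values were adjusted over the 10 pairs (Benjamini-Hochberg). The smallest p these arrangements allow is 0.00794. The ratio of Egr1 to Egr3 was lower with Areg, at 4.17 ± 0.144 against 4.73 ± 0.244 in controls on the log2 scale, a difference of -0.56 (95% interval -0.85 to -0.27, exact permutation adjusted p = 0.0159). The ratio of Egr1 to Egr2 was lower with Areg by 0.24 (difference -0.24, 95% interval -0.38 to -0.11, exact permutation adjusted p = 0.0227). At the 4 h sampled, Egr3 was therefore raised more than Egr1, and so was Egr2. No earlier time was sampled, so the ratios do not rank the members by their peak response.

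Each Egr gene also rose relative to each Nab gene. The difference in log2 ratio was 1.05 for Egr3 over Nab2 (95% interval 0.65 to 1.46), 0.74 for Egr2 over Nab2 (0.51 to 0.97) and 0.49 for Egr1 over Nab2 (0.24 to 0.75), each with an exact permutation adjusted p of 0.0159. Over Nab1 it was 0.85 for Egr3, 0.54 for Egr2 and 0.29 for Egr1, with exact permutation adjusted p = 0.0227, 0.0159 and 0.0298. The ratio of Nab1 to Nab2 differed by 0.20 (95% interval -0.11 to 0.51, exact permutation adjusted p = 0.182), an interval that covers no difference as well as a 0.51 shift. The ratio of Egr2 to Egr3 differed by -0.32 (95% interval -0.58 to -0.06, exact permutation adjusted p = 0.0441). The Egr2 to Egr3 difference lost its call under 8 of 14 alternatives: with a pseudocount of 1, without control 1, 2, 4 or 5, and without Areg 1, 2 or 3 (exact permutation adjusted p = 0.0529 to 0.0794). The Egr1 to Nab1 difference lost its call under 4 of 14, without Areg 1, 2, 3 or 4 (exact permutation adjusted p = 0.0529 to 0.0595), and Nab1 to Nab2 was called on estimated counts (0.26, exact permutation adjusted p = 0.0397).

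**Figure D3:**
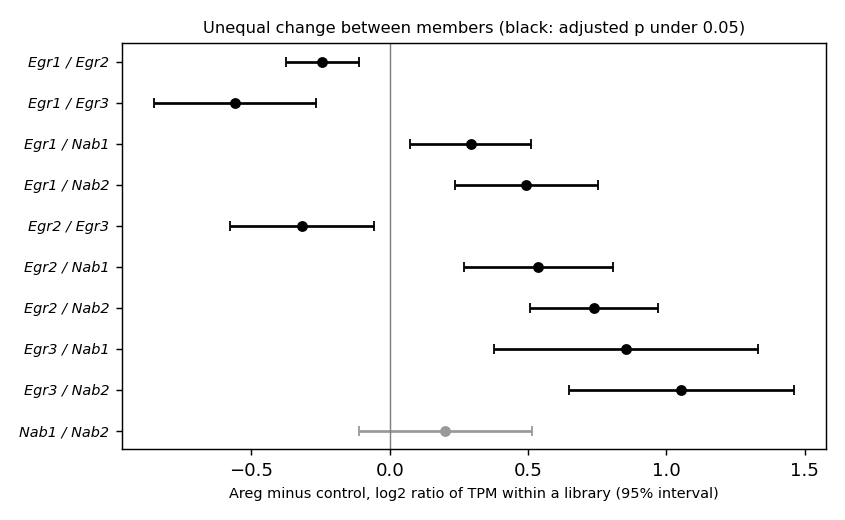
Difference between Areg and control in the log2 TPM ratio of 2 members within a library (horizontal axis), with its 95% interval, for the 10 pairs listed down the page; black marks an exact permutation adjusted p under 0.05 and grey marks one above it. The 3 Egr genes stand above both Nab genes, by 0.29 to 1.05, and Nab1 / Nab2 at 0.20 is the only grey pair.

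The transcript models of each gene were estimated by kallisto from shared reads, and their values are given as a description. Egr1 was carried mostly by Egr1-202, at 140 to 157 TPM with Areg and 99.2 to 118 TPM in controls. The longer model Egr1-201 had 11.2 to 14.8 TPM with Areg and 11.8 to 17.0 TPM in controls, so its groups overlapped where those of Egr1-202 did not. Among the 7 models of Egr2, Egr2-201 had 19.3 to 21.8 TPM with Areg and 11.3 to 14.0 TPM in controls. Egr2-206, a short model of 902 bases that starts upstream at 67535583, had 8.70 to 14.7 TPM with Areg and 4.67 to 6.98 TPM in controls. The groups were thus separate for Egr2-201 and Egr2-206, and they overlapped for every other Egr2 model. Egr2-203 averaged 1.38 TPM with Areg and 1.68 TPM in controls, and Egr2-205 2.47 and 2.62 TPM. How many models of all genes had separate groups was not counted.

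For Egr3, the longest coding model, Egr3-204, had 1.76 to 5.13 TPM with Areg and 0 to 2.45 TPM in controls. The retained intron model Egr3-202 had 0 to 2.89 TPM with Areg and 0 to 2.86 TPM in controls. Both models overlapped between groups, and with 80 to 301 reads for the whole gene per library the division among its 4 models was unsteady. Nab1-201 carried most of Nab1, at 34.4 to 40.7 TPM with Areg and 30.98 to 44.4 TPM in controls. Nab2 was divided between Nab2-201, at 7.65 to 9.17 TPM with Areg and 5.92 to 17.8 TPM in controls, and Nab2-202, at 5.87 to 10.2 TPM with Areg and 0 to 9.92 TPM in controls. Control 3 was the library at 0 for Nab2-202 and had the highest Nab2-201 value.

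Upstream of the Egr genes stand the ERK cascade and the serum response factor arm. Of 26 genes in that list, all tested, 1 rose, 4 fell and 21 did not pass, and the median log2 fold change was -0.03 against -0.01 over all tested genes. The 19.2% called is near the 16.7% of all genes. Without control 4, 2 genes of the list rose and 1 fell, and without controls 3 and 4 together 3 rose and 3 fell. Mapk3, which encodes ERK1, fell to 131 ± 6.33 CPM with Areg, against 158 ± 20.2 CPM in controls (SD, n = 5 each; edgeR adjusted p = 0.0201). Mrtfa, a cofactor of serum response factor, and the kinase gene Araf fell by 0.27 and 0.19 on the log2 scale (edgeR adjusted p = 0.0253 and 0.0258). Rps6ka3, which encodes an ERK-activated kinase, was the gene that rose, by 0.24, and no gene of the list was called higher when any 1 of the 5 Areg libraries was left out or on either TPM scale. The number called was 1 without Areg replicate 2, 2 without Areg replicate 4 or 5 and 3 without control 4. Over all genes the calls in these 4 fits were 1364, 1585, 1504 and 1706, of 13349 to 13578 tested, against 2226 in the main fit. The list also had 2 called members with a transcript length offset or on a log2(TPM + 1) scale. In those fits 1149 and 856 of all 13362 tested genes were called.

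Downstream, a list of 37 genes reported as targets of Egr factors in other cells had 35 tested members, of which 10 rose, 6 fell and 19 did not pass. This is 45.7% called, against 16.7% of all tested genes, with a median log2 fold change of 0.11 against -0.01 over all tested genes. The list was drawn up with earlier results of these data known, so its count is no independent evidence. F3, the tissue factor gene, had 51.1 ± 1.76 CPM with Areg and 30.0 ± 1.19 CPM in controls, up by 0.77 on the log2 scale (SE 0.05, edgeR adjusted p = 1.37e-07). Socs3, an inhibitor of cytokine signalling, rose by 0.52, Fgf2, a fibroblast growth factor gene, by 0.53, and Ptges, which encodes a prostaglandin E synthase, by 0.46 on the log2 scale. Col1a2, a type I collagen gene, was among the 6 that fell, at -0.34, and Tgfb1, a classic Egr1 target, did not pass at -0.12 on the log2 scale (edgeR adjusted p = 0.375); both were picked after their values were seen. With a transcript length offset 9 members of the list were called, where 1149 of all 13362 tested genes were. On a log2(TPM + 1) scale 8 members were called, where 856 of all 13362 tested genes were. On that scale the list median was -0.01, against -0.03 over all tested genes.

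**Figure D4:**
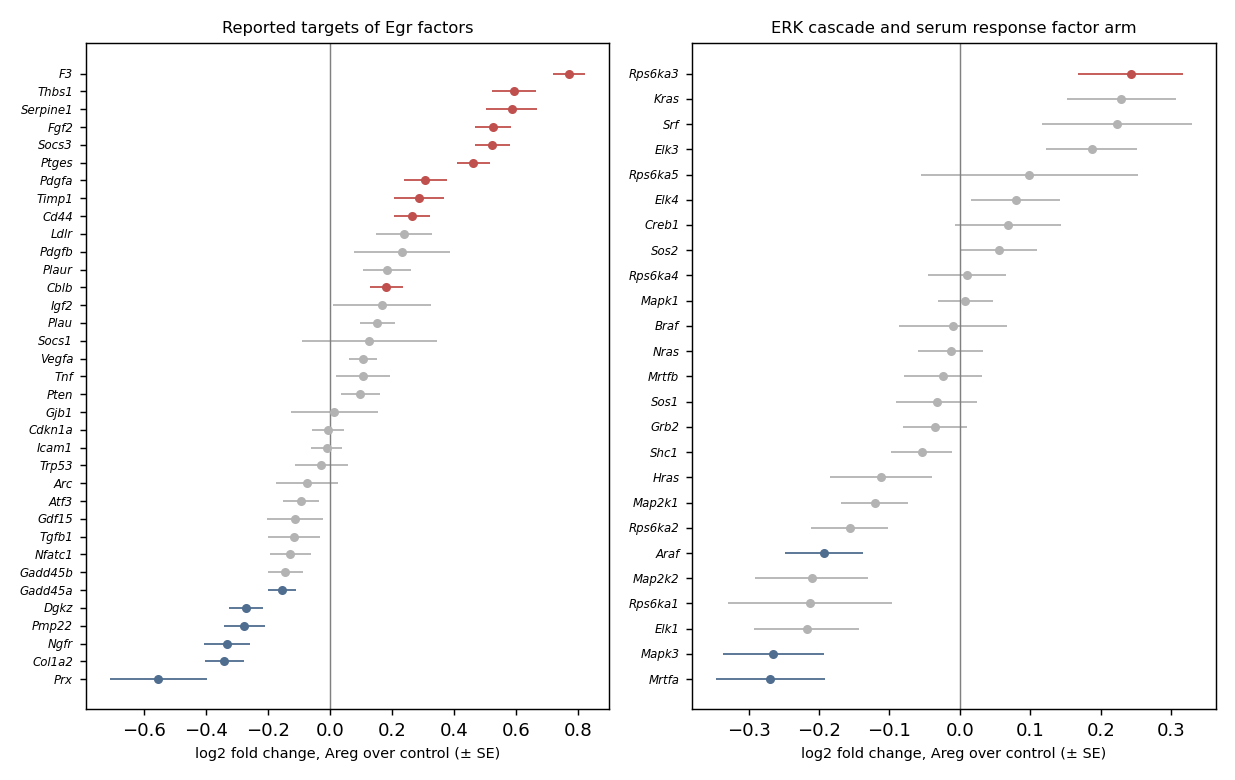
Log2 fold change of Areg over control with its SE (horizontal axis) for the tested genes of the 2 lists, 1 of the genes that fell in the second list not drawn; red marks genes called higher, blue genes called lower and grey genes that did not pass. In the target list 10 genes are red and 6 blue, and in the ERK and serum response factor list 1 is red and 3 are blue.

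The genes most like each member were sought by the root-mean-square difference between log2 CPM profiles over the 10 libraries, each centred on its own mean, among 10088 genes with at least 5 CPM. Closest to Egr2 were Ehd3, an endocytic trafficking gene, Dusp5, which encodes a nuclear ERK phosphatase, and the cytokine gene Lif, at 0.07 each, where the median gene differed by 0.37. Closest to Egr3 were Ankrd1, Stc1 and again Lif, at 0.13, 0.15 and 0.17, where the median gene differed by 0.52. Egr1 was nearest to Rcan1, a calcineurin regulator, to Mid1 and to Nr5a2, at 0.06, 0.06 and 0.07. Nab1 lay nearest to Msn, Rad23b and Ptges3, at 0.04 each, and Nab2 to Pik3r5, Slc35a4 and Med15, at 0.05 each, none of which passed the edgeR test. Among the members themselves, the profiles of Egr1 and Egr2 were the closest pair, at 0.16, and those of Egr3 and Nab2 the most distant, at 0.58. Egr1 and Nab1 were nearly as close, at 0.17, where the median gene differed from Egr1 by 0.24.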

How the data were processed

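Per the file headers, the authors deposited 1 kallisto table per library, with estimated counts (expected counts, not always whole) and TPM for each transcript and the other columns giving its length and effective length in bases. Names listed in the submitters' processing notes are kallisto 0.44.0, bcl2fastq 2.19, DESeq2 and GRCm38.p6, with no role or order. Per the labels' protocols, poly-A RNA went into TruSeq libraries. The sources used here do not give the strand setting or the transcript set.

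Of 118489 transcripts, 116816 matched GENCODE M21 (GRCm38), and the rest held 0.736 to 0.778% of counts. Counts were summed per gene and rounded. edgeR 4.0.16 (R 4.3.3; quasi-likelihood, robust, TMM, filterByExpr with minimum count 10) compared 5 Areg with 5 control libraries, without covariates, with Benjamini-Hochberg adjustment over 13362 genes and a threshold of 0.05. SEs were derived from each log2 fold change and its F value, and 95% intervals use the 8 residual degrees of freedom, fewer than edgeR's moderated test. No replicate pair agreed within sampling noise (chi-square over its degrees of freedom 3.775 to 50.7). The highest values, 19.9 to 50.7, were those of control 3 or 4 with control 1, 2 or 5. Pairs of Areg libraries had 3.775 to 10.5, and controls 3 and 4 had 5.14 with each other. The fit and the permutation test were tested on simulated data. The fit recovered 33% of simulated 1.25-fold changes, 81.7% of 1.5-fold and 98.3% of 2-fold changes, and 5.02% of its calls were false. Only 200 of 13362 genes were changed per run, fewer than were called in the data. A member that did not pass may thus have changed by a small amount.

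Members, lists and tests were chosen with earlier results of these data known. The text names the members, genes overlapping them, up to 4 genes per list with the smallest p and the 3 genes closest to each member; 1 gene under this rule is not reported here. Rps6ka3, named as the only riser of its list, Col1a2 and Tgfb1 were chosen after their values were seen. Alternatives were other scalings, filters and tools (DESeq2 1.42.0, limma 3.58.1), a length offset, TPM scales, unmatched transcripts, the replicate number as a block and libraries left out.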

Additional observations from a re-analysis of the deposited data

How the results depend on the processing

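The rises of Egr1, Egr2 and Egr3 kept their direction and stayed under 0.05 in all 22 alternatives, with log2 fold changes of 0.34 to 0.46, 0.60 to 0.75 and 0.81 to 1.02, and Nab1 (0.08 to 0.14) and Nab2 (-0.20 to -0.04) passed in none. The count of genes called was 1149 with a transcript length offset, 856 on log2(TPM + 1), 868 on log2(TPM + 0.1) and 1364 (without Areg 2) to 2314 with 1 library left out. That count was 2625 with DESeq2 and 2357 with the replicate block. The ERK and serum response factor list had 8 called members with DESeq2, 2 with the length offset, 2 on each TPM scale, 9 with the replicate block and 1 to 7 with 1 library left out. The target list had 9 with the length offset, 8 on each TPM scale and 13 to 18 with 1 library left out. The difference of Egr2 to Egr3 was -0.21 with a pseudocount of 1 and -0.38 to -0.26 with 1 library left out, that of Egr1 to Nab1 was 0.25 to 0.35 with 1 library left out, and that of Nab1 to Nab2 was 0.26 on estimated counts; the cause was not tested.

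Same-numbered libraries deviated together weakly (correlations -0.05 to 0.14), and libraries with different numbers had correlations of -0.20 to 0.13. The highest correlation, 0.14, was that of Areg 4 with control 4. The labels do not say that the numbers mark pairs, and they are not taken to pair the libraries. With the replicate block 2357 genes were called and the log2 fold changes of Egr1, Egr2, Egr3, Nab1 and Nab2 were 0.38, 0.69, 0.94, 0.12 and -0.14, with no call of a member changed. Depth limits Egr4 and the transcript models of Egr3.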
